A study of Mus musculus with 34 samples.

Results

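Among the mast cells (MCs) that were sorted from mouse ear skin, 483 of 2196 held at least 3 transcripts of the cytokine genes Il13 and Il6 added together and are called cytokine-expressing MCs here. A cell entered the count if it held over 1000 transcripts outside the predicted genes named Gm plus a number, a limit that 2503 cells passed in the 34 single-cell libraries of the whole series and 2196 in the 30 MC libraries. The 483 cells made up 22.0% of the MCs. A further 648 MCs held 1 or 2 transcripts of the cytokine pair, and 1065 held none and are called cytokine-negative MCs. Because the cells were chosen by their Il13 and Il6 transcripts, the levels of these genes are given as a description and carry no test.

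The cells came from untreated ear skin of male mice 7 weeks old. In 3 Tln1ΔMC mice (strain Mcpt5-Cre Tln1fl/fl R26LSLYFP) the gene for the adhesion protein talin-1 was floxed for deletion in MCs, and 3 littermate wild-type (WT) mice carried normal Tln1 with the same Cre and reporter. Every MC group therefore carried Mcpt5-Cre, which is driven by the promoter of a protease gene of connective tissue MCs, together with the R26-LSL-YFP reporter, and CD45+Lin−YFP+ cells were sorted into plates after enzymatic digestion of the skin. The other 4 libraries held CD45−GFP+ cells of Myh11-GFP reporter skin and are used only as cells of another type. Libraries were assigned to mice by the number that follows wt or KO in their names, 4 libraries for each mouse and 10 for Tln1ΔMC mouse 3.

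MCs are tissue-resident cells that store histamine and proteases in granules and can release them within minutes of activation. Cytokines are mostly made later and more slowly, after signals from the IgE receptor, from other receptors or from tissue damage raise calcium and engage the transcription factors NFAT, AP-1, Egr and NF-kB. Interleukin-13 is a type 2 cytokine that acts on epithelium, fibroblasts and macrophages, and interleukin-6 is an inflammatory cytokine with many target cells. The chemokines Ccl2 and Ccl7 recruit monocytes. Early response genes can also be induced while skin is digested.

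The 250 bases before the start sites of both chosen genes are shown because the response factors just named can bind such sequences. They were taken from RefSeq (GRCm38.p6), are written 5′ to 3′ on the strand of the gene, and carry in capitals each match to the letters searched on both strands, namely GGAAA (the NFAT core, read as TTTCC on the other strand), TGANTCA (AP-1), TGACGTCA (a cyclic AMP response element), GGGANTTTC (NF-kB, which overlaps the NFAT core), GCGNGGGCG (Egr) and TATAAA. The Il13 gene lies on the minus strand of chr11:53631324-53634702 and its upstream bases at chr11:53634703-53634952. The Il6 gene lies on the plus strand of chr5:30013114-30019981 and its upstream bases at chr5:30012864-30013113 (gene models from GENCODE M21 on GRCm38).
Il13: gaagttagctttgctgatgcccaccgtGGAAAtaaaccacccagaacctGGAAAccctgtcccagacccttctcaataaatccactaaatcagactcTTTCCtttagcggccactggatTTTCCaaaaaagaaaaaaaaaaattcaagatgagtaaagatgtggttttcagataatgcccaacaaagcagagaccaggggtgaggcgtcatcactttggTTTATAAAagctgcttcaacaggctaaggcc
Il6: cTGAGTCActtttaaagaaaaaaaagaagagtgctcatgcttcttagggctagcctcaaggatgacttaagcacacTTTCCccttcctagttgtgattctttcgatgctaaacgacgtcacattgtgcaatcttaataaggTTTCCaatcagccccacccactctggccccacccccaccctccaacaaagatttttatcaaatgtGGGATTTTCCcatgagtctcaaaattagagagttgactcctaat
The Il13 sequence held 4 copies of the NFAT core and the TATA letters 29 bases before the start. The Il6 sequence held 3 copies of the NFAT core, 1 AP-1 match and 1 NF-kB match at base −44. The NFAT core was common, being present in 55.6% of 32851 upstream sequences of this length, whereas the AP-1 letters were in 6.75%, the NF-kB letters in 0.941% and the TATA letters in 12.4%. The Egr letters (4.70% of sequences) and the cyclic AMP response element (1.55%) were in neither. A match is only a run of letters and does not show a bound site.

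Of the 483 cells, 245 held Il13 and no Il6, 29 held Il6 and no Il13, and 209 held both. The median cell had 5 transcripts of the pair, the highest had 70, and single cells reached 66 transcripts of Il13 and 26 of Il6. The 48 cells with the most transcripts held 33.8% of all Il13 and Il6 transcripts of the class, so the level was spread unevenly among the cells. The class held 82.0% of the Il13 transcripts and 82.1% of the Il6 transcripts found in all MCs. At the threshold, 130 cells with exactly 3 transcripts were inside and 209 cells with exactly 2 were outside. Pooled Ccl7 was 26.4 per 10,000 transcripts in the former and 26.0 in the latter, Ccl2 was 6.65 and 7.25, and Egr2 was 1.15 and 0.741.

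Levels are given per 10,000 transcripts outside the Gm genes, after the transcripts of all cells of a class in 1 mouse were added. In the cytokine-expressing MCs, Il13 was at 11.3, 6.18 and 11.2 in the WT mice and at 14.9, 20.7 and 8.66 in the Tln1ΔMC mice. The groups overlapped, with the highest level in Tln1ΔMC mouse 2 and the lowest in WT mouse 2. The Il6 level was 5.59, 2.45 and 1.28 in the WT mice and 6.93, 4.63 and 2.28 in the Tln1ΔMC mice. Il6 was below Il13 in all 6 mice, and its levels also overlapped between genotypes.

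Il6 was found more often in cells with Il13 than in cells without it. It was present in 25.6% of the 983 MCs with at least 1 Il13 transcript and in 12.2% of the 1213 MCs with none, and the share was higher beside Il13 in every mouse. Deeper cells show more of every gene, so each cell was also thinned to 1000 transcript molecules (unique molecular identifiers, UMIs). Il6 was then present in 13.3% of 483 cells with Il13 and in 5.33% of 1707 cells without it.

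Il13 was not found in cells of another type. None of the 307 Myh11-GFP cells held an Il13 transcript at a median depth of 4089, against 44.8% of MCs at a median depth of 3700, and 0 of 307 cells allows a share of up to 0.977% with a transcript. Il6 did not mark MCs in this way, since 77.5% of Myh11-GFP cells and 18.2% of MCs held at least 1 Il6 transcript. The sort for MCs, and not Il6 itself, therefore sets the cell type of the cells chosen through Il6. At the 2875 well barcodes of the MC libraries that were not in use (median 97 transcripts), Il13 was found at 2.68% and Il6 at 0.522% of barcodes, no such barcode reached 3 transcripts, and the pooled Il13 level was 2.64 per 10,000 transcripts against 3.83 in MCs. The libraries share 1 list of well barcodes, no 2 cells had identical values, and 5 MCs stood at barcodes of the set not in use.

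The cytokine-expressing cells carried the defining transcripts of MCs. The granule protease genes Cpa3, Cma1 and Tpsb2 were found in all of them, the stem cell factor receptor Kit in 96.3% and Ms4a2, the beta chain of the IgE receptor, in 94.2%. Summed over the 14 MC markers, the level ran from 693 to 942 across mice in cytokine-expressing cells and from 772 to 1028 in cytokine-negative cells. Cd3e, which defines T cells, and Prss34, a basophil protease, had 0 transcripts in the class.

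A few cells of the class also carried transcripts of other skin cells. In 11 of the 483 cells (2.28%) and 41 of the 1065 cytokine-negative cells (3.85%), macrophage, keratinocyte and fibroblast markers made up at least 1% of transcripts. These 11 cells came from WT mouse 2 (4 cells), WT mouse 3 (2 cells), Tln1ΔMC mouse 2 (1 cell) and Tln1ΔMC mouse 3 (4 cells). A cell of WT mouse 2 had 38293 transcripts, of which 27.1% were fibroblast markers and 1.58% MC markers. The summed level of the 8 fibroblast markers was 289 in WT mouse 2 and 219 in WT mouse 3, and 0.435 to 2.12 in the other 4 mice, whereas it was 1.56 to 23.3 in cytokine-negative cells. All 8 had transcripts in the class. The 13 macrophage and dendritic cell markers summed to 1.29 to 32.9 in cytokine-expressing and 2.29 to 58.8 in cytokine-negative cells, and the 8 keratinocyte markers to 0.0 to 81.4 and 0.0785 to 14.6. The basophil list stayed at 4.36 to 8.41 against 5.66 to 8.21, and the T cell and innate lymphoid cell list at 1.86 to 4.00 against 1.82 to 3.45. Several counts of called genes are therefore given with and without these cells, whereas levels per mouse include them unless stated. The class sums of WT mice 2 and 3 held 367613 and 210343 transcripts with these cells and 230479 and 151941 without them. Levels of other genes in these 2 mice are thus lowered by transcripts of such cells.

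The cytokine-expressing MCs were also the deeper cells. Their median depth was 3934, 4825 and 4109 transcripts in the WT mice and 3641, 4895 and 5818 in the Tln1ΔMC mice, against 2296, 2825 and 2065 and then 2161, 2302 and 4269 in cytokine-negative MCs. Depth was higher in the class in 6 of 6 mice, as a rule that asks for an absolute number of transcripts favours. The Gm genes took a smaller share of all transcripts in the class than in cytokine-negative cells in every mouse, with medians of 6.53% to 34.7% against 10.1% to 60.9%.

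The share of MCs in the class was compared between genotypes. It was 12.6% (32 of 253 cells, 95% exact binomial interval 8.81 to 17.4%), 19.1% (50 of 262, 14.5 to 24.4%) and 18.9% (37 of 196, 13.7 to 25.1%) in the WT mice. In the Tln1ΔMC mice it was 21.3% (51 of 240, 16.3 to 27.0%), 26.1% (84 of 322, 21.4 to 31.2%) and 24.8% (229 of 923, 22.1 to 27.7%). All 3 Tln1ΔMC mice lay above all 3 WT mice. The mean was 16.9% ± 3.66 (SD, n = 3) in WT and 24.0% ± 2.51 (SD, n = 3) in Tln1ΔMC mice, a difference of 7.18 percentage points with p = 0.1 in a two-sided exact permutation test over mice, which is the smallest p that 3 against 3 allows. The intervals cover counting error only.

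The order of the mice was not the same at every threshold and depth. After thinning to 1000 UMIs, at least 1 Il13 or Il6 transcript was found in 22.1%, 27.9% and 26.5% of cells in the WT mice and in 30.4%, 29.6% and 24.5% in the Tln1ΔMC mice. The groups then overlapped, and the difference was 2.66 percentage points (two-sided exact permutation p = 0.4). At least 3 transcripts remained after thinning in 3.16%, 3.05% and 4.08% of cells in the WT mice and in 8.75%, 11.5% and 2.94% in the Tln1ΔMC mice, so that Tln1ΔMC mouse 3, the deepest of them, was then the lowest (4.31 points, exact p = 0.4). A threshold of 5 transcripts without thinning kept the order (7.23 points, exact p = 0.1). With a threshold of 1 transcript in place of 3 the difference was 2.75 points (exact p = 0.6), and with Il13 alone or Il6 alone at 3 transcripts the groups overlapped (5.86 and 3.48 points, exact p = 0.2 for both). The share of a single library ran from 7.32% to 36.8%.

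**Figure D1:**
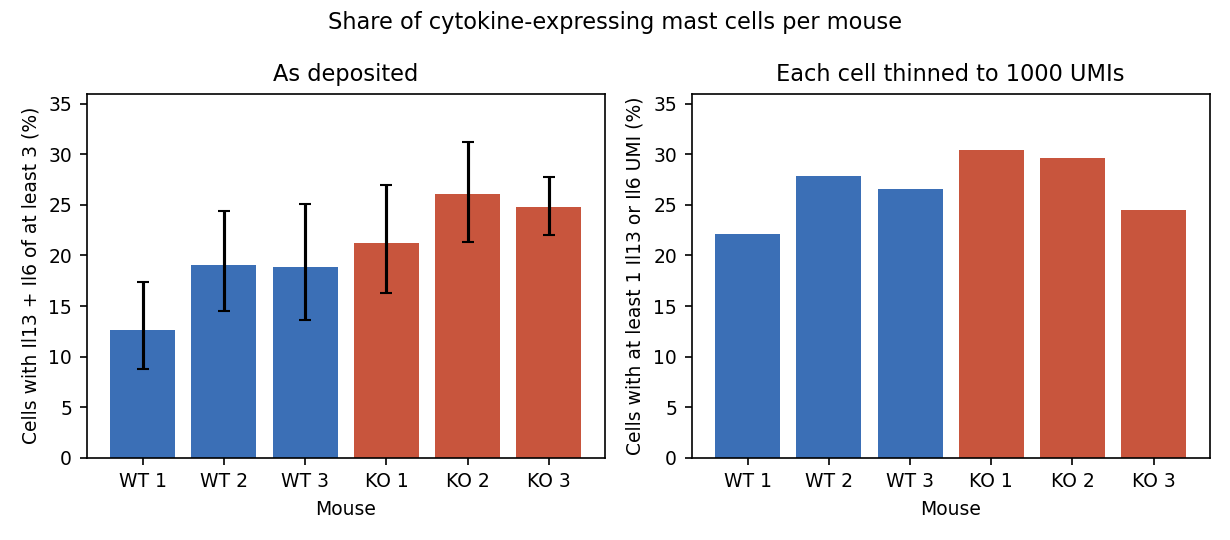
Left, share of MCs with at least 3 Il13 and Il6 transcripts (y axis, percent of cells) in each mouse (x axis), with 95% exact binomial intervals. The 3 WT mice lie between 12.6% and 19.1% and the 3 Tln1ΔMC mice between 21.3% and 26.1%. Right, share with at least 1 Il13 or Il6 UMI after thinning to 1000 UMIs. There the WT mice lie between 22.1% and 27.9% and the Tln1ΔMC mice between 24.5% and 30.4%. Single libraries, which are not drawn, ran from 16.7% to 22.7% in WT mouse 2 and from 14.7% to 36.8% in Tln1ΔMC mouse 3.

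To see what else distinguished the class, its summed transcripts were compared with those of the cytokine-negative MCs of the same mouse, with the mouse as a block, in limma voom with Benjamini-Hochberg adjustment. Il13 and Il6 were left out. Of 7592 genes tested, 67 were higher in the cytokine-expressing MCs (0.883%) and 73 were lower (0.962%) at an adjusted p under 0.05, 1.84% in all. Of the higher genes 50 were higher in all 6 mice, and of the lower genes 61 were lower in all 6. Among all 7592 genes tested, 216 were higher and 383 lower in all 6 mice. The calls were made over these same mice, so the agreement is no separate support. All changes given below are log2 fold changes of this fit. The median was 0.79 over the higher genes, −0.92 over the lower genes and −0.01 over all genes tested. The number of calls rested on several mice, being 31 without Tln1ΔMC mouse 2, 63 without WT mouse 1, 80 without Tln1ΔMC mouse 1 and 89 without WT mouse 3. Without the 52 cells rich in other markers it was 296, with 147 higher and 149 lower, and without the 1 library of WT mouse 2 that stood apart by its macrophage transcripts it was 185.

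**Figure D2:**
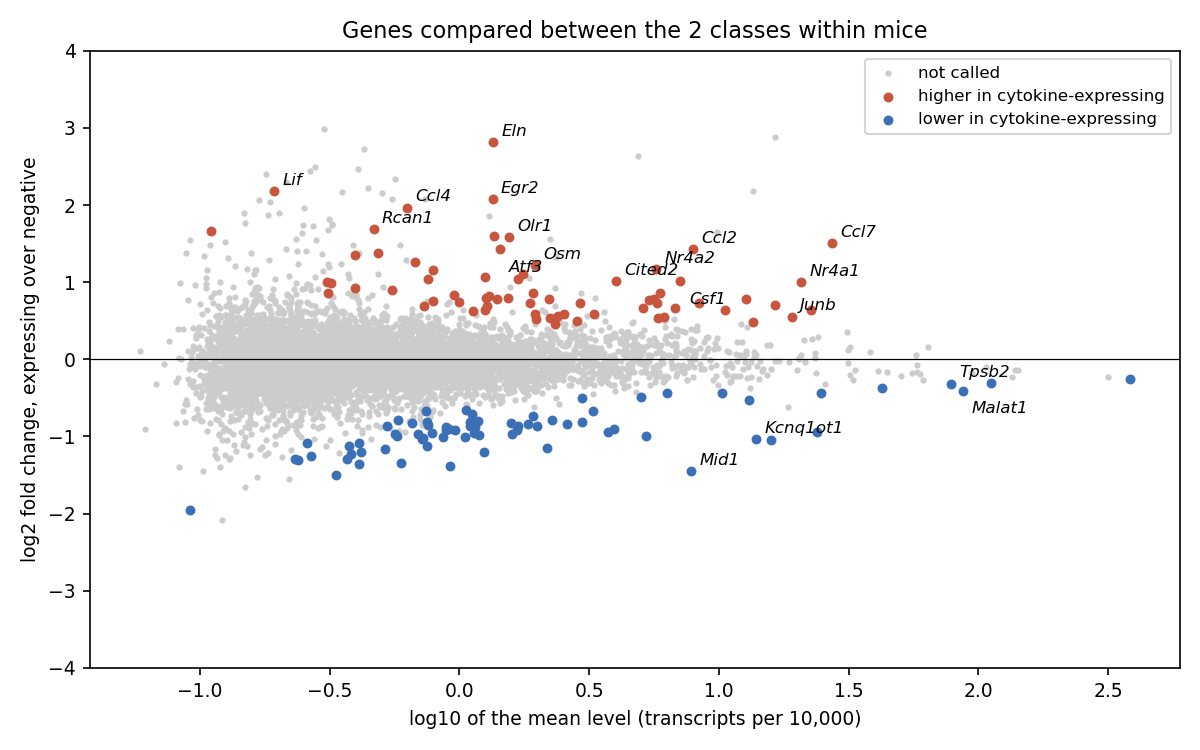
Log2 fold change of each of 7592 genes between cytokine-expressing and cytokine-negative MCs (y axis) against the log10 mean level per 10,000 transcripts (x axis). The 67 genes called higher are red and the 73 called lower are blue, and the chemokine and Egr and Nr4a genes named in the text stand among the red points.

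The chemokine genes Ccl7 and Ccl2 were among the genes with the largest rise. Ccl7 and Ccl2, neighbours at chr11:82045712-82047525 and chr11:82035571-82037453, had been proposed as markers of the class from earlier results, so their values are a description. Ccl7 was at 55.0, 19.7 and 34.2 in cytokine-expressing cells of the WT mice and at 41.0, 57.4 and 38.7 in those of the Tln1ΔMC mice, against 18.2, 13.2 and 12.2 and then 10.9, 9.49 and 16.9 in cytokine-negative cells. Every mouse was higher in the class, and the 2 classes did not overlap across mice. The fitted log2 fold change of Ccl7 was 1.51 (SE 0.16). Ccl2 was at 8.64, 6.32 and 13.2 and at 11.7, 19.6 and 11.1 in the class, against 3.46, 5.25 and 4.98 and then 2.62, 3.40 and 4.94. It too was higher in each mouse, with a log2 fold change of 1.43 (SE 0.19). Of 7 chemokine genes tested, 3 rose, the proposed markers Ccl7 and Ccl2 among them, and none fell. The median log2 fold change of 1.43 was the value of Ccl2 itself. This count and this median are therefore a description too, beside 0.883% of all genes tested that were higher. The other one that rose was Ccl4, which attracts lymphocytes and macrophages (log2 fold change 1.97, SE 0.45, limma voom adjusted p = 0.0325), at a mean level of 1.08 in the class and 0.171 in cytokine-negative cells, and lower in WT mouse 2. Ccl1 (0.74, adjusted p = 0.247) and Cxcl2 (−0.77, adjusted p = 0.610) were not called. Ccl3 had 28 transcripts in the class and 5 in cytokine-negative cells and was too low to be tested.

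Of 11 other cytokine genes tested, 3 rose and none fell, with a median log2 fold change of 0.61. Among all genes tested, 0.883% were higher. The list was chosen with earlier results of these data known, so its count is a description. Csf1, the growth factor of macrophages, was at 13, 3.59 and 10.3 in the class in the WT mice and at 9.34, 16.8 and 6.44 in the Tln1ΔMC mice, against 4.32, 4.75 and 5.06 and then 3.33, 3.91 and 4.44. It was higher in 5 of 6 mice, WT mouse 2 being the exception (log2 fold change 1.02, SE 0.21, limma voom adjusted p = 0.0179). Osm encodes oncostatin M, a cytokine of the interleukin-6 family, and was at 3.19, 0.735 and 1.43 in the WT mice and at 4.51, 3.66 and 3.24 in the Tln1ΔMC mice. In cytokine-negative cells it was at 1.28, 1.09 and 0.784 and then at 1.23, 0.786 and 1.48. With all cells in the sums, WT mouse 2 alone was again not higher (1.22, SE 0.22, adjusted p = 0.00819). After thinning, Osm was found there in 6.0% of the class and in 6.15% of cytokine-negative cells. Whether either gene is higher in WT mouse 2 without the cells rich in other markers was not tested. Lif, another member of that family, rested on 50 transcripts in the class and 17 outside it (2.18, SE 0.48, adjusted p = 0.0255). Il4, a type 2 cytokine gene that lies near Il13 in the genome, missed the threshold (0.74, SE 0.19, adjusted p = 0.0557) although its level was higher in 6 of 6 mice. Tnf (0.53, adjusted p = 0.0860), Csf2 (0.61, adjusted p = 0.392), Vegfa (0.11, adjusted p = 0.869) and Tgfb1 (−0.23, adjusted p = 0.504) were not called.

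**Figure D3:**
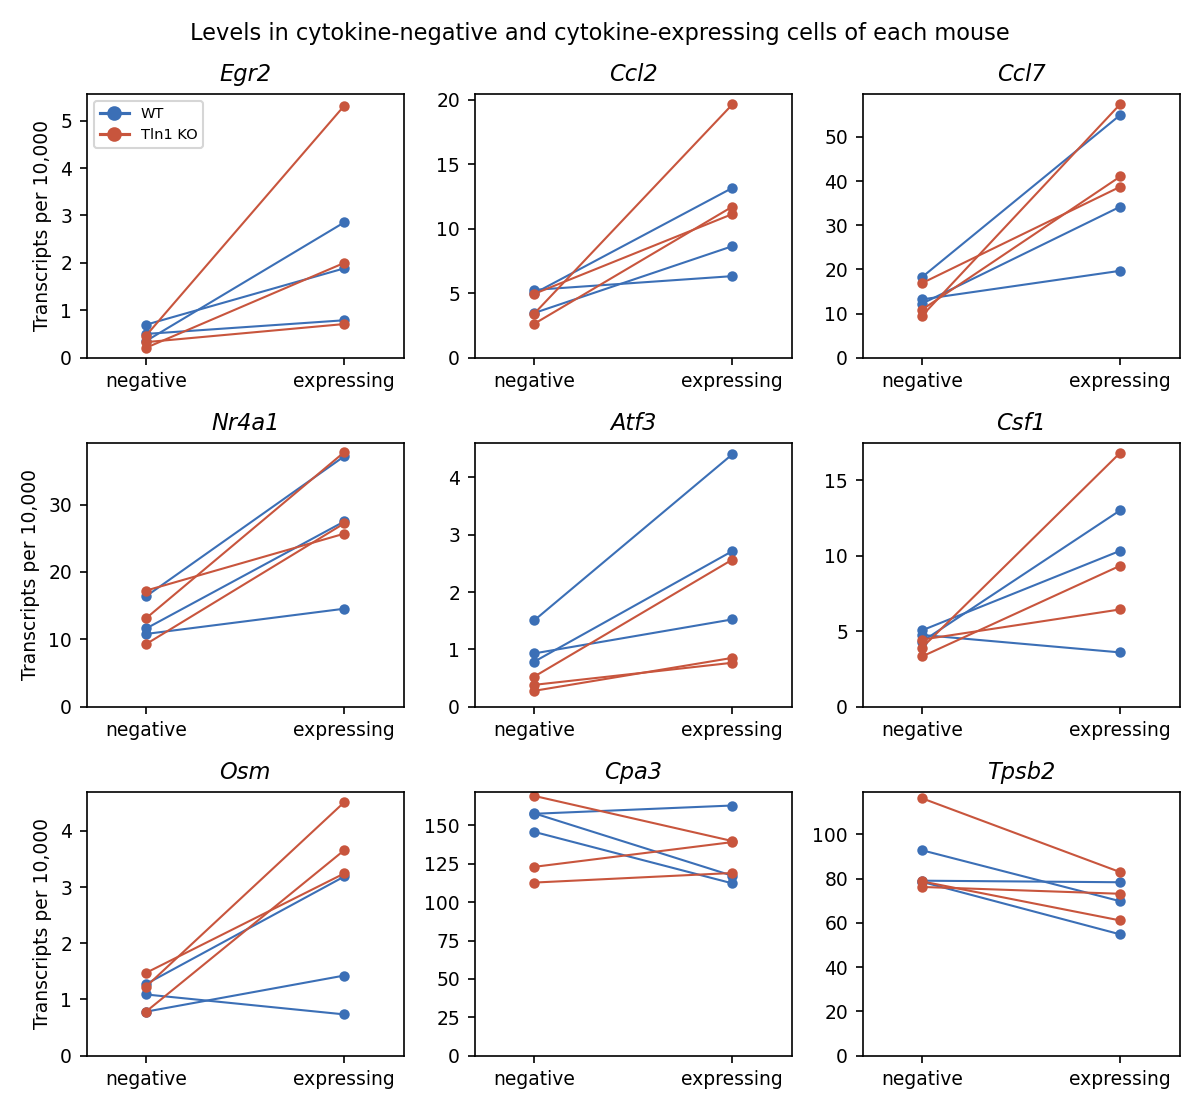
Level per 10,000 transcripts (y axis) of 9 genes in cytokine-negative and cytokine-expressing MCs (x axis), each line being 1 mouse, WT in blue and Tln1ΔMC in red. The lines of Ccl7, Ccl2, Egr2, Nr4a1 and Atf3 rise in all 6 mice, those of Csf1 and Osm in 5, whereas Tpsb2 falls in all 6 and Cpa3 rises in 3.

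Of 15 genes of the Egr, Nr4a and NFAT group tested, 7 were higher and none lower, with a median log2 fold change of 0.46. Among all genes tested, 0.883% were higher. The list was chosen with earlier results of these data known and the 7 genes include Egr2, so the count is a description. Egr2, a zinc finger transcription factor at chr10:67535475-67542188, was another proposed marker. Its level was 1.89, 0.789 and 2.86 in the WT mice and 2.00, 5.32 and 0.710 in the Tln1ΔMC mice in the class, against 0.696, 0.501 and 0.353 and then 0.209, 0.467 and 0.328. Egr2 was higher in all 6 mice, most of all in Tln1ΔMC mouse 2, with a log2 fold change of 2.07 (SE 0.30). Nr4a1, an orphan nuclear receptor induced early after receptor signalling, was at 37.2, 14.5 and 27.5 and at 37.8, 27.2 and 25.7 in the class. In cytokine-negative cells Nr4a1 was at 16.4, 10.8 and 11.6 and at 13.1, 9.29 and 17.2, lower in each mouse (log2 fold change 1.00, SE 0.12, limma voom adjusted p = 0.000679). Its relatives Nr4a2 (1.17, SE 0.17, adjusted p = 0.00221) and Nr4a3 (0.48, SE 0.11, adjusted p = 0.0263) also rose, as did Egr1 (0.71, SE 0.14, adjusted p = 0.0168). Rcan1, a calcineurin inhibitor that is itself a target of NFAT, rose by 1.69 (SE 0.35, adjusted p = 0.0196) from a mean level of 0.180 to 0.754. Nfatc1, an NFAT factor, rose by 0.46 (SE 0.11, adjusted p = 0.0411). At middle depth neither Rcan1 (1.12, adjusted p = 0.247) nor Nfatc1 (0.35, adjusted p = 0.447) was called, and Nfatc1 lost its call in 15 of 24 alternatives.

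Only part of the immediate early genes were higher. Of 19 tested, 5 rose and none fell, with a median log2 fold change of 0.26. Among all genes tested, 0.883% were higher. This list was also chosen with earlier results of these data known, so its count is a description. Atf3, a stress-induced factor of the AP-1 superfamily, was at 1.52, 4.40 and 2.71 in the WT mice and at 2.57, 0.851 and 0.766 in the Tln1ΔMC mice in the class, against 0.929, 1.5 and 0.784 and then 0.524, 0.276 and 0.380. It was higher in all 6 mice, although the class of Tln1ΔMC mice 2 and 3 was no higher than the cytokine-negative cells of WT mouse 1 (log2 fold change 1.42, SE 0.17, limma voom adjusted p = 0.000679). At the middle depth described below its rise was smaller and was not called (0.63, adjusted p = 0.652). The others that rose were Csrnp1 (0.78, SE 0.11), the AP-1 genes Fosl2 (0.73, SE 0.13) and Junb (0.55, SE 0.11), and the survival gene Ier3 (0.64, SE 0.13), with limma voom adjusted p between 0.00106 and 0.0173. The best known AP-1 genes were not called, namely Fos (−0.61, SE 0.21, adjusted p = 0.188), Fosb (0.02, SE 0.08, adjusted p = 0.965) and Jun (−0.14, SE 0.07, adjusted p = 0.453). Fos was below 0 under each of 23 alternatives in which it was tested and was called lower in 6 of them, among them the middle depth (−0.78, limma voom adjusted p = 0.00643), cells without other markers (−0.59, adjusted p = 0.00670) and a class of cells with at least 3 Il6 transcripts (−1.62, adjusted p = 3.2e-05). The summed level of the immediate early list had a median of 145 per 10,000 in cells without Il13 and Il6 and of 190, 159 and 186 in cells with 3 to 5, 6 to 10 and over 10 transcripts of the pair. With cytokine-negative cells limited to those at or above the lower quartile of the class of their mouse for that sum, 94 genes were called, 58 higher and 36 lower, and 34 of the 60 higher genes that could be tested again were called again.

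Of 18 NF-kB and feedback genes, 2 rose and none fell, with a median log2 fold change of 0.15. Among all genes tested, 0.883% were higher. The lists of this paragraph were also chosen with earlier results of these data known, so their counts are a description. Both genes that rose encode nuclear inhibitor-kappa-B proteins that modulate NF-kB target genes, Nfkbiz (0.78, SE 0.14, limma voom adjusted p = 0.00854) and Nfkbid (0.67, SE 0.13, adjusted p = 0.0116). Nfkbia, the gene of the classical inhibitor, was at a mean level of 17.0 in the class and 17.1 outside it (adjusted p = 0.957). None of the 8 feedback genes of the MAP kinase pathway was called (median 0.27), and none of the 10 genes of mRNA decay and cytokine signal suppression (median 0.28). Lists this short often hold no call when 1.84% of all genes are called. Zfp36, whose protein destabilises cytokine mRNA, had a log2 fold change of 0.45 (SE 0.18, adjusted p = 0.274). Without the cells rich in other markers Zfp36 was called higher (0.47, SE 0.13, limma voom adjusted p = 0.0320). So were Spry2 of the MAP kinase list (0.95, SE 0.23, adjusted p = 0.00694) and Tnfaip3 of the NF-kB list (0.50, SE 0.11, adjusted p = 0.00249).

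The remaining genes with the largest rise had various roles. Srxn1, which encodes the antioxidant enzyme sulfiredoxin, was at 1.45, 0.980 and 1.86 and at 2.36, 5.02 and 0.849 in the class, against 0.162, 0.806 and 0.862 and then 0.733, 0.828 and 0.339, higher in each mouse (log2 fold change 1.60, SE 0.24, limma voom adjusted p = 0.00221). Olr1, a scavenger receptor for oxidised lipoprotein, rose by 1.58 (SE 0.22, adjusted p = 0.00106) and was highest in WT mouse 1. Calca, the gene of calcitonin and the neuropeptide CGRP, rose by 1.27 (SE 0.31, adjusted p = 0.0427) from a low level that itself ran from 0.0218 to 1.08 among cytokine-negative cells. Gadd45a, a stress and growth arrest gene, the small GTPase gene Gem, the interferon-induced gene Isg15, the transcriptional coregulator Cited2 and the single-strand DNA-binding gene Nabp1 rose by between 1.01 and 1.16, each in 6 of 6 mice. Tmigd3 rose by 1.36 (SE 0.26, adjusted p = 0.0148), but its annotated locus overlaps that of Adora3, and the reads of the genes may not be told apart.

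With all cells in the fit, no gene of MC identity or of the first steps of activation was called higher in the class. None of 15 genes of the IgE receptor and its first signalling steps was called (median log2 fold change −0.12), none of 11 receptors for activating ligands (0.01), none of 9 genes of amine and lipid mediators (−0.01) and none of 12 lineage transcription factors (0.06). Among all genes tested 1.84% were called, so 0 calls in lists this short does not set them apart from other genes. Values near the middle were Fcer1a, the ligand-binding chain of the IgE receptor (−0.13, SE 0.12), Mrgprb2, the receptor for basic secretagogues (−0.22, SE 0.10), Il1rl1, the interleukin-33 receptor (0.14, SE 0.10), the histamine-forming enzyme gene Hdc (0.16, SE 0.10) and Gata2 (0.08, SE 0.08). Of 11 granule genes 1 fell and none rose, with a median of −0.16. The one that fell was the tryptase gene Tpsb2, at 78.4, 54.8 and 69.8 and at 82.9, 61.1 and 73.2 in the class against 79.1, 78.6 and 92.8 and then 116, 78.8 and 76.3. The fall of Tpsb2 was small but was seen in all 6 mice (−0.32, SE 0.08, limma voom adjusted p = 0.0439). The call was lost in 14 of 24 alternatives, middle depth among them (−0.21, adjusted p = 0.207). Without the cells rich in other markers Hdc (0.26, SE 0.06, limma voom adjusted p = 0.00694) and the granzyme gene Gzmb (0.73, SE 0.18, adjusted p = 0.00859) were called higher, and the protease gene Mcpt4 (−0.13, SE 0.04, adjusted p = 0.0475) was called lower beside Tpsb2. In all cells, none of 13 heat shock and dissociation genes (0.02) and none of 10 talin and integrin genes (−0.17) was called. Without the cells rich in other markers the heat shock gene Hspa1a (−0.76, SE 0.18, limma voom adjusted p = 0.00743) was called lower. Hspa5 of the same list (0.30, SE 0.09, adjusted p = 0.0337) was called higher. Tln1 itself was at 4.93, 4.93 and 5.71 in the class in WT mice and at 5.69, 4.65 and 3.62 in Tln1ΔMC mice, but 3′ tags do not read the deleted part and so do not check the deletion.

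The markers of other cells did not pass the test in either direction. Of the other lists, 0 of 5 tested basophil genes, 0 of 6 T cell and innate lymphoid cell genes, 0 of 10 macrophage, 0 of 7 keratinocyte and 0 of 5 fibroblast genes were called, and no mural or endothelial gene was high enough to be tested. With 1.84% of all genes called, these counts of 0 do not set the lists apart from other genes. Their medians were 0.07, 0.08, 0.45, 1.20 and 2.19. Without the 52 cells rich in such markers the medians of the last 3 lists were −0.08, 0.03 and −0.84, with 3 fibroblast genes lower. Those cells were left out by these same 3 lists, so these medians and calls follow in part from the filter and are a description. Among all 7178 genes of that fit 147 were higher and 149 lower. The cytokine and the Egr, Nr4a and NFAT lists then held 5 and 8 higher genes and no lower one, with Il4, Tnf and the leucine zipper gene Nfil3 among those called. The chemokine list held 3 higher genes and 1 lower, Cxcl2 (−1.09, SE 0.29, limma voom adjusted p = 0.0190), and the immediate early list 6 higher and 2 lower, Fos and Jund. The proposed markers Ccl7, Ccl2 and Egr2 are among the higher genes of these lists.

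The genes that were lower in the class formed a different set. Mid1, a microtubule-associated ubiquitin ligase, was at 0.942, 2.51 and 7.59 in the WT mice and at 5.08, 9.45 and 0.139 in the Tln1ΔMC mice, against 5.66, 11.9 and 20.4 and then 6.21, 23.5 and 0.246. It was lower in the class in all 6 mice, although mice differed from each other more than the classes did (log2 fold change −1.45, SE 0.19, limma voom adjusted p = 0.00101). The 10 lowest named genes were otherwise rare transcripts, with at most 327 transcripts in all cytokine-negative cells, and included Shank1 (−1.5) and Ntrk3 (−1.22) of neurons, the vomeronasal receptor gene Vmn2r53 (−1.38), the receptor genes Ccr4 (−1.30), Gpr37 (−1.30) and Fcrl6 (−1.25), the kinase gene Mylk4 (−1.36) and the clone-named 9330136K24Rik (−1.95) and RP23-474B17.1 (−1.31). Clone-type names were borne by 25 of the 73 lower genes and 1 of the 67 higher genes, against 3.87% of genes tested. Among abundant transcripts, the nuclear RNAs Kcnq1ot1 (−1.03, SE 0.14, adjusted p = 0.00106) and Malat1 (−0.40, SE 0.07, adjusted p = 0.00712) and the mitochondrial mt-Nd5 (−0.37, SE 0.07, adjusted p = 0.0168) and mt-Rnr2 (−0.26, SE 0.06, adjusted p = 0.0329) were lower, in 6 of 6 mice each.

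Depth and the share of Gm transcripts also differed between the classes. Depth was made more alike in the fits that follow, whereas the Gm share was not, and its relation to the lower genes was not tested. When both classes were limited to cells within the interquartile range of the depth of the class in their mouse, here called the middle depth range, which left 241 cytokine-expressing and 333 cytokine-negative cells, 62 genes were called, 51 higher and 11 lower. Of the 67 higher genes 62 could be tested there and 38 were called again, with a median log2 fold change of 0.84 against 0.78 for the same genes in all cells. Of the 73 lower genes 67 could be tested and 7 were called again, with a median of −0.62 against −0.90. Thinning every cell to 1000 UMIs, which keeps cells of all depths but lets each cell weigh alike, gave the other picture, with 183 calls, 44 higher and 139 lower. Of the lower genes 68 could be tested there, all 68 were lower, and 59 were called again with a median of −1.19, beside −0.13 for all genes of that fit. Of the higher genes 57 could be tested, all 57 were higher, and 36 were called again with a median of 0.74. The calls of the lower genes thus depended on how depth was made equal. Among the named genes, Atf3, Rcan1, Nfatc1, Junb, Calca, Gadd45a, Isg15, Nabp1 and Tmigd3 of the higher and Tpsb2, Malat1, mt-Nd5, mt-Rnr2 and 4 rare transcripts (Gpr37, Mylk4, Ntrk3 and Vmn2r53) of the lower genes kept their direction at middle depth and lost their call, and Lif, 9330136K24Rik, RP23-474B17.1, Ccr4 and Fcrl6 were too low to be tested there. When the Gm genes were kept in the totals, 128 genes were higher and 261 lower. RefSeq upstream sequences of 250 bases were at hand for 45 of the higher and 38 of the lower genes, and the NFAT core letters were in 64.4% and 65.8% of them, against 58.8% of 5859 genes tested. The AP-1 letters were in 13.3% and 13.2%, against 5.39%. The Egr letters were in 13.3% and 2.63%, against 10.9%, and the cyclic AMP response element in 8.89% and 2.63%, against 3.26%. The last 2 motifs were each found in 1 lower gene, against 6 and 4 higher genes, and these shares carry no test.

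**Figure D4:**
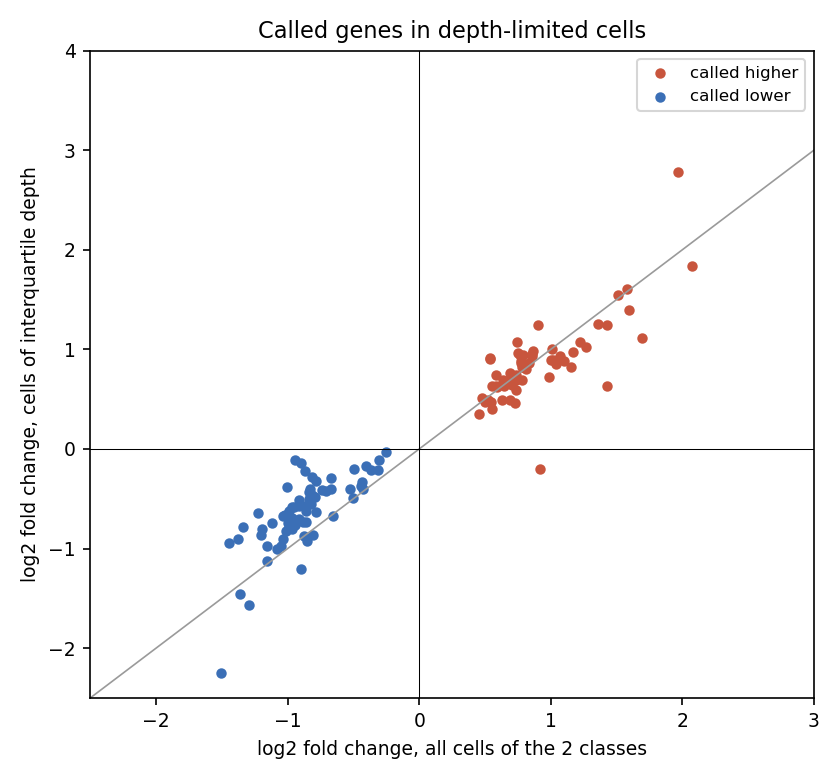
Log2 fold change of the genes called higher (red) or lower (blue), in all cells (x axis) and in cells of the middle depth range only (y axis). The red points lie about the diagonal (medians 0.78 and 0.84), and the blue points lie nearer 0 on the y axis than on the x axis (−0.62 against −0.90).

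Detection at equal depth gave the same order of classes for the leading genes. In cells thinned to 1000 UMIs, a Ccl7 transcript was found in 85.9% of 483 cytokine-expressing and in 54.8% of 1060 cytokine-negative cells. The shares were 58.6% and 26.6% for Ccl2, 78.1% and 54.4% for Nr4a1, 48.4% and 27.9% for Csf1, and 10.4% and 3.49% for Egr2, higher in the class in all 6 mice for each of these 4 genes. Osm (21.3% and 9.34%) and Nr4a2 (30.2% and 18.7%) were higher in 5 of 6 mice. Cpa3 was near its ceiling in both classes (99.8% and 99.6%). The Ccl7 share of cytokine-negative cells ran from 42.7% to 61.5% across mice, so the transcript was common in both classes.

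Several genes followed the number of Il13 and Il6 transcripts in steps. Cells were placed in 5 bins, of 1065 cells with none, 648 with 1 to 2, 265 with 3 to 5, 111 with 6 to 10 and 107 with over 10, and levels were averaged over the 6 mice. Ccl7 was at 13.5, 18.6, 28.1, 48.2 and 69.5 from the lowest to the highest bin, and in every mouse it was highest in the last bin (55.3 to 89.1). Ccl2 was at 4.11, 5.57, 7.18, 11.0 and 25.5. Nr4a2 was at 3.31, 4.57, 4.32, 10.1 and 13.6 and so did not rise between the second and the third bin. Mid1 went the other way, at 11.3, 8.22, 5.10, 4.12 and 3.24. Atf3 (0.733, 1.11, 2.21, 0.984 and 2.14) and Egr2 (0.426, 0.756, 1.77, 1.06 and 5.05) did not rise at each step, and Egr2 in the highest bin ran from 0.931 in Tln1ΔMC mouse 3 to 15.2 in WT mouse 3. The median depth was 2977, 3743, 4813, 4703 and 5869 transcripts, and the smallest bin held 4 cells of 1 mouse. These steps are a description, because the bins are cut on the genes of the rule.

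**Figure D5:**
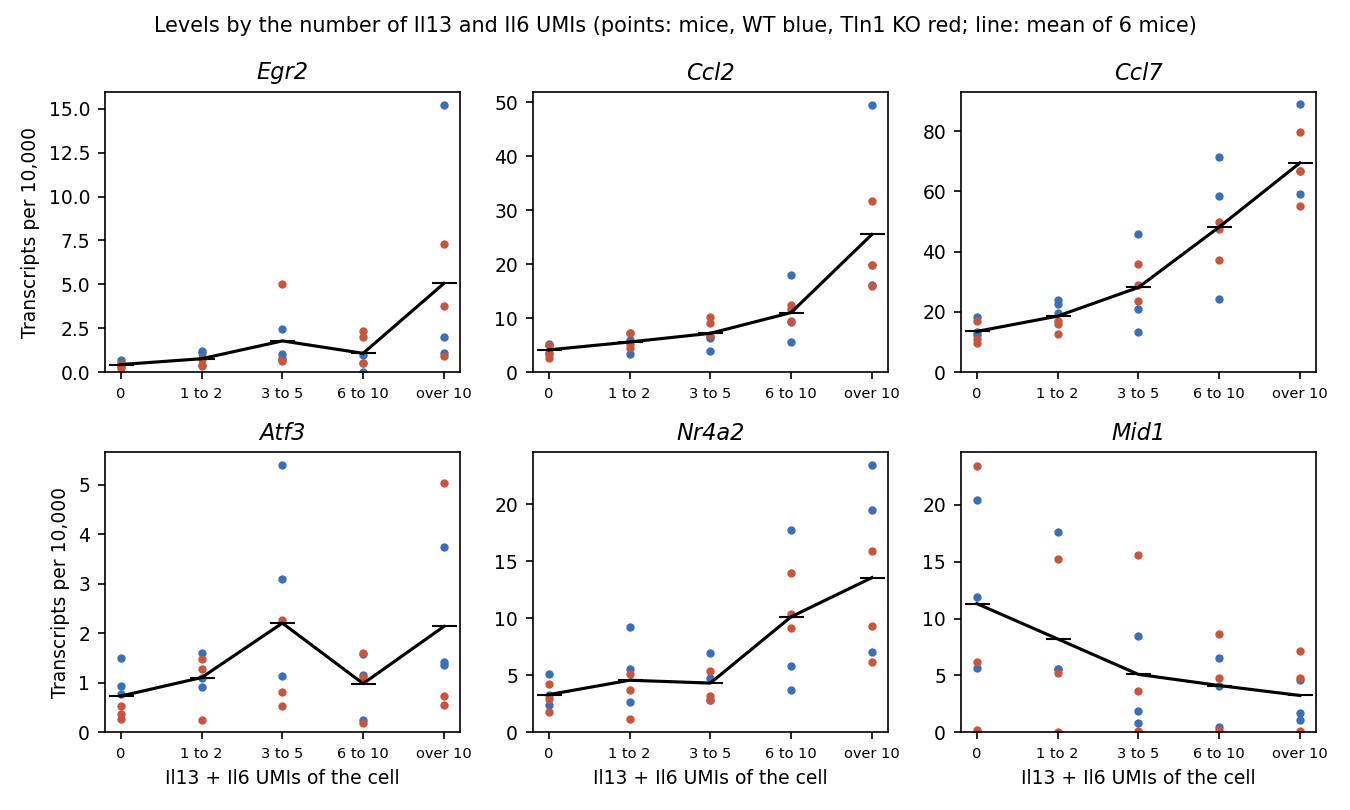
Level per 10,000 transcripts (y axis) of 6 genes in cells binned by their Il13 and Il6 transcripts (x axis, 0 to over 10). Each point is 1 mouse, WT in blue and Tln1ΔMC in red, and the black line is the mean over mice. The mean of Ccl7 goes from 13.5 to 69.5 and that of Ccl2 from 4.11 to 25.5, while that of Mid1 goes from 11.3 to 3.24.

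Within the class, the cells with Il13 and no Il6 were compared with the cells with Il6 and no Il13. Only 4 mice had at least 3 cells of each kind (WT mouse 2 and the Tln1ΔMC mice), and the Il6-only sums held 5, 7, 4 and 10 cells. Nr4a1 was at 17.2 in Il13-only and 7.04 in Il6-only cells of WT mouse 2, and at 34.4 and 16.7, 30.5 and 9.61, and 30.7 and 10.2 in the Tln1ΔMC mice. Fos was at 2.41 and 2.09 in WT mouse 2, then at 48.4 and 11.8, 31.8 and 1.37, and 26.1 and 7.16. Both genes were higher in the Il13-only cells of all 4 mice, though Fos barely so in WT mouse 2. The sums of WT mouse 2 rested largely on the cells rich in other markers, because the cell with 27.1% fibroblast markers gave 38293 of the 52588 Il6-only transcripts and a cell with 2.96% keratinocyte markers gave 88414 of the 191380 Il13-only transcripts. Without such cells Nr4a1 in WT mouse 2 was at 26.3 and 21.7, and Fos at 2.05 and 1.40. Of 2623 genes tested 59 were higher in the Il13-only cells (2.25%) and 0 lower in limma voom with the mouse as a block, and 370 of all genes had an unadjusted p under 0.05. Without the cells rich in other markers 51 of 2000 genes were called, all of them higher.

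The scale of that comparison was uncertain. With factors from trimmed means of M values (TMM) the median of all genes was 0.30 on the log2 scale, so the changes are to be read relative to it. With library size as the only scale the median was −0.04, all 59 genes kept a positive sign and 9 were called, namely Nr4a1, Fos, Ccl7, Junb, Jun, Dusp1, Nfkbiz, Egr1 and Ccl2. Their log2 differences on that scale ran from 1.10 for Ccl7 to 2.11 for Fos. All 9 were also called on library size without the cells rich in other markers (1.06 for Ccl7 to 2.19 for Fos). The limma-trend fit called 0 genes, with 333 at an unadjusted p under 0.05. The MC protease gene Mcpt4, called with TMM (0.89, limma voom adjusted p = 6.9e-05), was not called on library size (0.54, adjusted p = 0.183). Of the 59 genes, 10 were mitochondrial. Leaving out WT mouse 2 left 18 calls and leaving out Tln1ΔMC mouse 3 left 24. Cells with both cytokines had a mean Fos level of 9.37 over 6 mice, against 24.0 in Il13-only cells of these mice and 5.61 in Il6-only cells of 4 mice. Their mean Ccl7 level was 41.3, against 43.6 and 17.9.

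Between genotypes, the cytokine-expressing MCs alone showed no gene that passed the test. Of 4762 genes tested in limma voom 0 were called (0.0%), 455 had an unadjusted p under 0.05 and the smallest adjusted p was 0.258, and limma-trend also called 0, with 351 at an unadjusted p under 0.05. The count was 38 without WT mouse 1. The levels of Ccl7, Ccl2 and Egr2 in the class given above overlapped between the genotypes. The contrast between cytokine-expressing and cytokine-negative cells differed between genotypes for 8 of 7592 genes (0.105%), all with a lower value in Tln1ΔMC mice, and for 0 of 7178 genes once the 52 cells rich in other markers were left out (260 at an unadjusted p under 0.05). The count was 86 without WT mouse 1, 1 without WT mouse 2 and 1 without Tln1ΔMC mouse 1. The 8 genes are the matrix genes Cilp, Dcn, Col1a2, Col1a1, Eln and Col3a1, the keratin gene Krt15 and the AP-1 gene Fosl1. Of these, Dcn, Col1a2, Col1a1, Col3a1 and Krt15 are among the markers by which the 52 cells were left out. The loss of calls without those cells was thus partly set by the filter, and only 4 of the 8 genes were tested there. Col1a1, for example, was at 106 and 79.1 in the class in WT mice 2 and 3 and at 0.0725 to 0.831 in the other 4 mice.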

How the data were processed

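Single cells were sorted into plates and sequenced by mCEL-Seq2, which reads 3′ ends with a UMI of 6 bases. The authors demultiplexed with bcl2fastq 2.17.1.14, mapped with BWA 0.6.2-r126 to gene models of the mouse (mm10), dropped reads with several hits, and turned UMI counts per gene and cell into transcript numbers with a binomial correction. The authors deposited such corrected transcript numbers, another unit than counts, and every one of them returned to a whole UMI. The 34 tables hold 25853 gene names and 192 barcodes each, and 5640 Gm genes were left out of all totals. All tables were used, and the Myh11-GFP tables only for background.

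Cells, classes and levels followed the rule in the text. The members, gene lists and tests were chosen with earlier results of these data known. Summed transcripts per mouse and class held 137993 to 1437681 transcripts in cytokine-expressing and 255292 to 1709383 in cytokine-negative cells, and voom weights take these unequal depths into account. A count model had been planned, but limma voom was used because the unit is not a count (limma 3.58.1, R 4.3.3, Python 3.11.15), with TMM factors (0.919 to 1.12 for the sums of both classes, 0.841 to 1.28 for those of Il13-only and Il6-only cells), the mouse as a block, a minimum of 10 transcripts per gene in each of 3 mice or more, and Benjamini-Hochberg adjustment at 0.05. Scripts were tested on simulated data. Genes named were the 15 highest and 10 lowest called genes that changed alike in every mouse and had at least 50 transcripts, and the called and known members of each list. The authors state that doublets were excluded at the sort, and no caller was run on plates. Whether the cells rich in other markers were mixtures of cells was not tested. Nothing says in words that the number after wt or KO is the mouse, and each p-value over mice rests on it. Alternatives were other scalings, thresholds, filters, depths and mice.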

Additional observations from a re-analysis of the deposited data

Results flagged for a closer look

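In all 8 genes called when the contrasts were compared by genotype, the contrast between cytokine-expressing and cytokine-negative MCs was lower in Tln1ΔMC than in WT mice by limma voom with Benjamini-Hochberg adjustment. The differences of the log2 contrasts were −7.70 for Cilp, −7.50 for Dcn, −6.61 for Col1a2, −6.34 for Col1a1, −6.31 for Eln, −5.68 for Col3a1, −4.93 for Krt15 and −4.44 for Fosl1. The levels of the matrix genes were high in the class in WT mice 2 and 3 alone, where Col3a1 was at 39.8 and 13 and Dcn at 9.88 and 8.65, against at most 0.184 for Col3a1 and 0.205 for Dcn in the other 4 mice. In those mice, 1 cytokine-expressing cell each had 27.1% and 8.33% fibroblast marker transcripts among 38293 and 54604 transcripts. Krt15 and Fosl1 were high in WT mouse 2 alone, at 12.9 and 2.25, against at most 0.667 and 0.381 in the other 5 mice, and a cell of WT mouse 2 with 88414 transcripts had 2.96% keratinocyte markers. With such cells left out no gene was called (260 at an unadjusted p under 0.05). Only 4 of the 8 genes were tested in that fit. Col1a1, Col1a2, Col3a1, Dcn and Krt15 are among the markers by which those cells were left out. The loss of these calls was thus partly set by the filter.

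Il6 was found outside the MC comparisons, with at least 1 transcript in 77.5% of the 307 Myh11-GFP cells, against 18.2% of MCs, and in 62.5% and 7.08% after thinning to 1000 UMIs. No sample without Il6 serves as a control in the series, and 0.522% of unused barcodes held a transcript.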

How the results depend on the processing

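The direction of the 67 higher genes was kept in full with library size as the scale, with size factors from medians of ratios and with a threshold of 1 transcript, and that of the 73 lower genes with the first 2 of these. The count of 140 genes became 77 with limma-trend, 74 with Il6 alone as the rule, 62 at middle depth, 389 with Gm genes kept (128 higher, 261 lower), 296 without cells rich in other markers, and 31 to 184 with 1 mouse left out. Cells with 1 or 2 transcripts in place of the class gave 35 calls, an alternative chosen after seeing the data. Of the 44 called genes examined one by one, Junb (−0.0076, with Il6 alone) and mt-Nd5 (0.055, with the class just named) reversed. Without the mouse as a block 1 gene was called.

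Between genotypes, the count of 0 became 1 without a filter on low genes, 30 at a threshold of 1 transcript and 0 to 38 with 1 mouse left out. With the number of the mouse as a replicate block it was 17, 2 higher and 15 lower. Deviations of same-numbered mice correlated at 0.175, 0.0091 and 0.00311, and those of mice with different numbers at −0.231 to 0.234. With 3 mice per genotype these values cannot show whether the numbers pair the mice, and the labels do not say so. The 8 differing contrasts became 4 after thinning, 0 with limma-trend (343 at an unadjusted p under 0.05), 41 without a filter, 20 and 3 at thresholds of 1 and 5, and 1 to 86 with 1 mouse left out. After seeing the data, 18 were found without the library of WT mouse 2 that was rich in macrophage transcripts and 0 without cells rich in other markers, where Col3a1 (0.67), Dcn (1.89), Col1a1 (1.04) and Col1a2 (0.29) reversed. These 4 genes were the only ones of the 8 tested there, and they are markers by which those cells were left out. At a threshold of 1 transcript Krt15 reversed (0.26). The cause was not tested.

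The 59 genes of the comparison of Il13-only and Il6-only cells became 9 on library size, 0 with limma-trend (333 at an unadjusted p under 0.05), 3512 without a filter (213 higher, 3299 lower), 133 at a threshold of 1 transcript, 129 after thinning and 13 on library size without cells rich in other markers, 12 higher and 1 lower (both chosen after seeing the data), and 18 to 52 with 1 mouse left out. A threshold of 5 left too few mice, and the planned count model was not run. Shares differed by 2.66 to 8.97 points between genotypes under all settings run, higher in Tln1ΔMC mice. With 29 Il6-only cells and classes of 32 to 229 cells per mouse, rare transcripts could not be compared at this depth.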
